A study of Mus musculus with 6 samples.

Results

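The transcripts of the mitochondrial chromosome were examined in primary mouse chondrocytes with and without deletion of Nf2, the gene of merlin, a membrane-associated protein and activator of Hippo signalling. The members were the rows of the deposited gene table whose name begins with mt-, which gave 37 of 55401 genes. They comprised 13 mRNAs, 2 rRNAs and 22 tRNAs, and the table held 0 other rows on chromosome MT. Poly(A) RNA had been sequenced from 6 libraries in 2 groups of 3. The control libraries carried the floxed alleles (Nf2f/f) and the Nf2-knockout libraries the deletion made from them. All cells were cultured from cartilage tissue, with a differentiation step named in the series' text. The names of all 6 libraries carry the tag D7, which the labels do not explain. The sources used here do not give the Cre driver or the age of the animals. No label ties replicates to separate animals or cultures, so the p-values reflect how far the libraries spread, and that spread may be technical only. For the Nf2-knockout libraries, TCF21 overexpression is named under treatment but in none of the titles.

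The mitochondrial chromosome is a compact circle that encodes core subunits of the respiratory chain and of ATP synthase, together with the rRNAs and tRNAs needed to translate them inside the organelle. Both strands are transcribed into long precursors, and most mRNAs and rRNAs are released where flanking tRNAs are cut out. Most mitochondrial mRNAs receive short poly(A) tails, which in some of them complete the stop codon, so that they are captured by oligo(dT) beads although their genes lie outside the nucleus. Articular and growth plate chondrocytes live in a tissue with little oxygen and rely much on glycolysis.

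The total count per library lay between 50906043 and 63748798. Nf2 stood at 87.9, 101 and 97.3 CPM (the count scaled to library size with edgeR's TMM factors) in replicates 1 to 3 of the knockout, and at 126, 133 and 122 in those of the control. Its level was lower in each Nf2-knockout library, with transcripts remaining in all of them (log2 fold change −0.41, SE 0.0866, edgeR adjusted p = 0.0305). That call was kept in 0 of the 6 fits without a library, where the log2 fold change ran from −0.45 to −0.34 and the adjusted p from 0.0518 to 0.123. Of 11 chondrocyte markers 0 were without counts, and their sum was 719 to 1521 CPM in Nf2-knockout and 691 to 1001 CPM in control libraries. For 4 of 6 lists of other cell types the summed levels did not overlap between the groups. Of all genes tested, taken singly and not as sums, 32.9% did not overlap in either direction. The sum of 7 fibroblast markers was 8026 to 10267 CPM in Nf2-knockout and 11921 to 15268 CPM in control libraries. The sum of 7 macrophage markers was 37.1 to 85.8 against 114 to 299 CPM, and that of 7 pericyte and smooth muscle markers 630.2 to 1055 against 439 to 491 CPM, with 0 members of these lists at 0 counts. Of single genes, 2 of the 7 fibroblast and 2 of the 7 macrophage markers fell, and 3 of the 7 pericyte and smooth muscle markers rose. Of the 11 chondrocyte markers 1 rose and 1 fell, and of 3 endothelial markers tested 1 rose. Over all genes tested with edgeR, 4.11% rose and 5.18% fell. The sum of 4 endothelial markers was 4.35 to 8.07 against 1.82 to 3.57 CPM, with Pecam1, Cdh5 and Tek under 1 CPM on average. The sums of skeletal muscle markers (1.20 to 2.77 against 0.705 to 2.07 CPM, with Myod1 at 0 in all libraries) and of erythroid markers (0.507 to 1.33 against 0.0843 to 1.56 CPM) overlapped. The part of such cells in the results below was not tested, and fewer cells of a type cannot be told apart from less RNA per cell.

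All 37 members had the same positions in the deposited table as in GENCODE M21 (GRCm38 build), from which the sequences here were read. On the plus strand, which is copied from the heavy strand of the molecule, lie 28 genes, and on the minus strand 9 genes, namely mt-Nd6 and 8 tRNAs. The ends of 4 mRNAs are shown because capture on oligo(dT) beads depends on the tail added there. Capitals mark the last bases that belong to the stop codon, complete in mt-Nd2 and reduced to a lone T in the 3 mRNAs below it.
mt-Nd2: ctagccccccaactaattaccTAG
mt-Co3: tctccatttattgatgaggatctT
mt-Nd4: aactaattacaggcctgacaataT
mt-Cytb: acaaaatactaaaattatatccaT
In the annotation the other 10 mRNAs, mt-Nd2 among them, ended in a complete stop codon.

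Several members also share bases with a neighbour. The gene mt-Atp8 runs 43 bases into mt-Atp6 (chromosome MT, 7927 to 7969), shown here in capitals with 10 bases on either side, where the capitals open with the start codon of mt-Atp6 and close with the stop codon of mt-Atp8.
mt-Atp8 and mt-Atp6: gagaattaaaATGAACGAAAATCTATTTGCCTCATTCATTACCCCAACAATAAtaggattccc
mt-Nd4l and mt-Nd4 overlap by 7 bases in the same way (10167 to 10173), and mt-Nd5 and mt-Nd6 by 14 bases on opposite strands (13552 to 13565). How reads in such stretches were divided, and whether counting used strand, the sources used here do not give. Unless counting used strand, reads of mt-Nd6 and of its antisense RNA cannot be told apart, and each value of a minus-strand member carries this limit.

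A block of nuclear DNA on chromosome 1 (24611535 to 24616197) repeats a stretch of the mitochondrial chromosome almost letter for letter. It holds 7 annotated pseudogenes in the deposited table, all with high counts. Aligned without gaps, their 4149 bases carried 7 substitutions against the mitochondrial genes (99.8% identical). The pseudogenes of mt-Co2 (Gm28661), mt-Atp6 (Gm10925), mt-Co3 (Gm28437), mt-Nd4l (Gm10222) and mt-Nd4 (Gm28439) had 0 substitutions. The other 2 pairs are shown at the places where they differ, in capitals, since within the copied stretch only reads that cover these bases could be assigned by sequence.
mt-Nd3: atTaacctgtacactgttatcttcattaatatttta
Gm28438: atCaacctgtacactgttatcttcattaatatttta
mt-Co1: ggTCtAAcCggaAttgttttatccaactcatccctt
Gm29216: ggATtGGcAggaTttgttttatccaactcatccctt
Counted from 1 at the 5′ end of each mitochondrial gene, the substitution in mt-Nd3 is T3C, and those in mt-Co1 are T1056A, C1057T, A1059G, A1060G, C1062A and A1066T. The pseudogene of mt-Nd4 covers 63.6% of that gene and that of mt-Co1 31.8%, and each of the others between 99.0% and 99.9% of its gene. The genes mt-Nd1, mt-Atp8, mt-Nd6, mt-Cytb and mt-Rnr1 shared 0 stretches of 50 bases with any other transcript of the annotation, on either strand. The search covered annotated transcripts only, not the bases of the block that lie outside them. On the mitochondrial chromosome mt-Atp8 follows mt-Co2 and runs into mt-Atp6, and the copies of both lie in the block. For mt-Atp8 no copy is annotated, so its 0 does not show that it lacks a nuclear copy. For mt-Nd2, mt-Nd5 and mt-Rnr2 the shared part was 8.19%, 7.61% and 1.04% of such stretches.

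Mitochondrial rows held a smaller share of the counts in Nf2-knockout libraries. The share was 7.65%, 7.44% and 7.65% in replicates 1 to 3 of the knockout, compared with 10.3%, 8.49% and 8.29% in those of the control, with 95% Wilson intervals of at most 0.00761 percentage points to either side, which cover counting error only. Every control library lay above every Nf2-knockout library, and the Nf2-knockout libraries were close together. The group means were 7.58 ± 0.121% and 9.01 ± 1.08% (SD, n = 3 each), a relative difference of −15.9%, and the exact two-sided permutation test gave p = 0.1, the smallest value that 3 against 3 libraries allow. Control replicate 1 carried much of it. Without that library the control mean was 8.39% and the relative difference −9.64%, with the groups still apart.

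Nearly all of this share was mRNA. The mRNAs held 7.33 ± 0.104% of the counts in the knockouts, compared with 8.75 ± 1.07% in the controls (exact permutation p = 0.1). The gene mt-Co1, which encodes subunit I of cytochrome c oxidase, alone held from 2.26% to 2.94% of a library, more in each control than in each Nf2-knockout library, and was the gene with the highest count in each of the 6. The rRNAs held 0.211 ± 0.0131% and 0.212 ± 0.0167% (exact permutation p = 0.9). The tRNAs held 0.0337 ± 0.00582% and 0.0446 ± 0.00574% (exact permutation p = 0.2). The 7 nuclear copies held a further 1.63% to 2.03% in the knockouts, compared with 2.16% to 3.08% in the controls, more than the rRNAs and tRNAs together. Counted with the copies, the share was 9.46 ± 0.343% against 11.6 ± 1.56%.

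**Figure D1:**
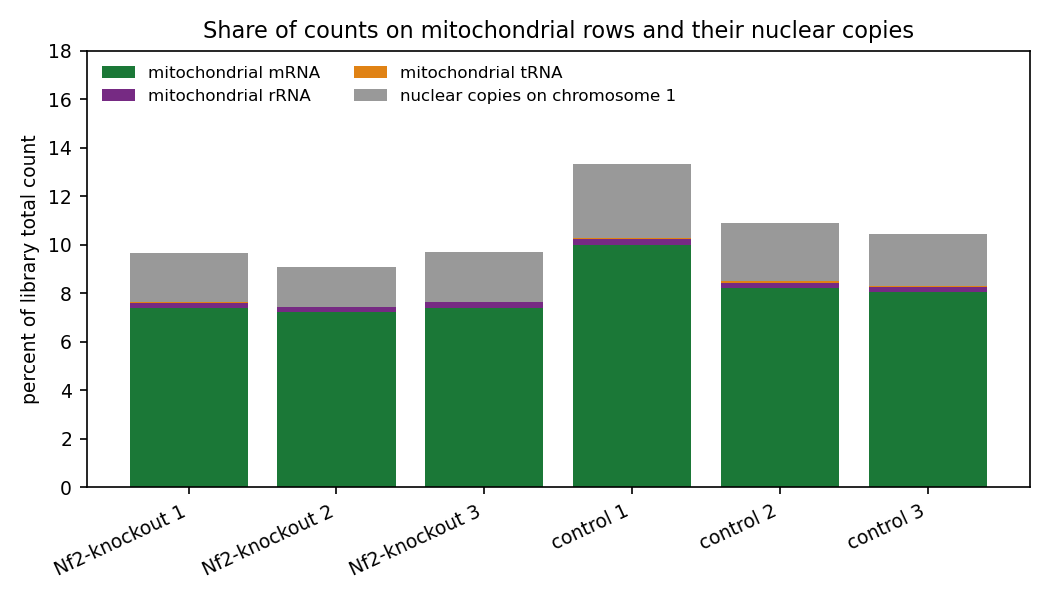
Stacked bars give the percent of each library's total count on mitochondrial mRNA, rRNA and tRNA rows and on the 7 nuclear copies on chromosome 1, for 3 Nf2-knockout and 3 control libraries. The mitochondrial part is 7.44% to 7.65% in the Nf2-knockout and 8.29% to 10.3% in the control libraries, and control replicate 1 has the tallest bar.

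Gene by gene, 1 of the 36 members tested passed edgeR's quasi-likelihood test with Benjamini-Hochberg adjustment over all 18218 genes, and it was lower in Nf2-knockout libraries. That is 2.78% of the members tested, against 5.18% of all genes tested that fell and 9.29% that changed in either direction. The member not tested was mt-Ts2. A lower level was nonetheless the common direction. Log2 fold changes were negative for 33 of the 36 (51.1% of all genes tested), with a median of −0.35 against −0.01 over all genes tested, and 0 members rose. Without adjustment, 14 of the 36 had an edgeR p under 0.05, all lower, against 24.8% of all genes tested in either direction and 13.2% lower. Groups did not overlap for 14 members, all lower, against 32.9% of all genes tested in either direction and 17.4% lower. Members on the same strand are cut from shared precursors, and all were measured in the same libraries, so they are not independent. Relative to the median of all genes, the median of the members stayed between −0.42 and −0.31 under the 15 alternative settings.

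**Figure D2:**
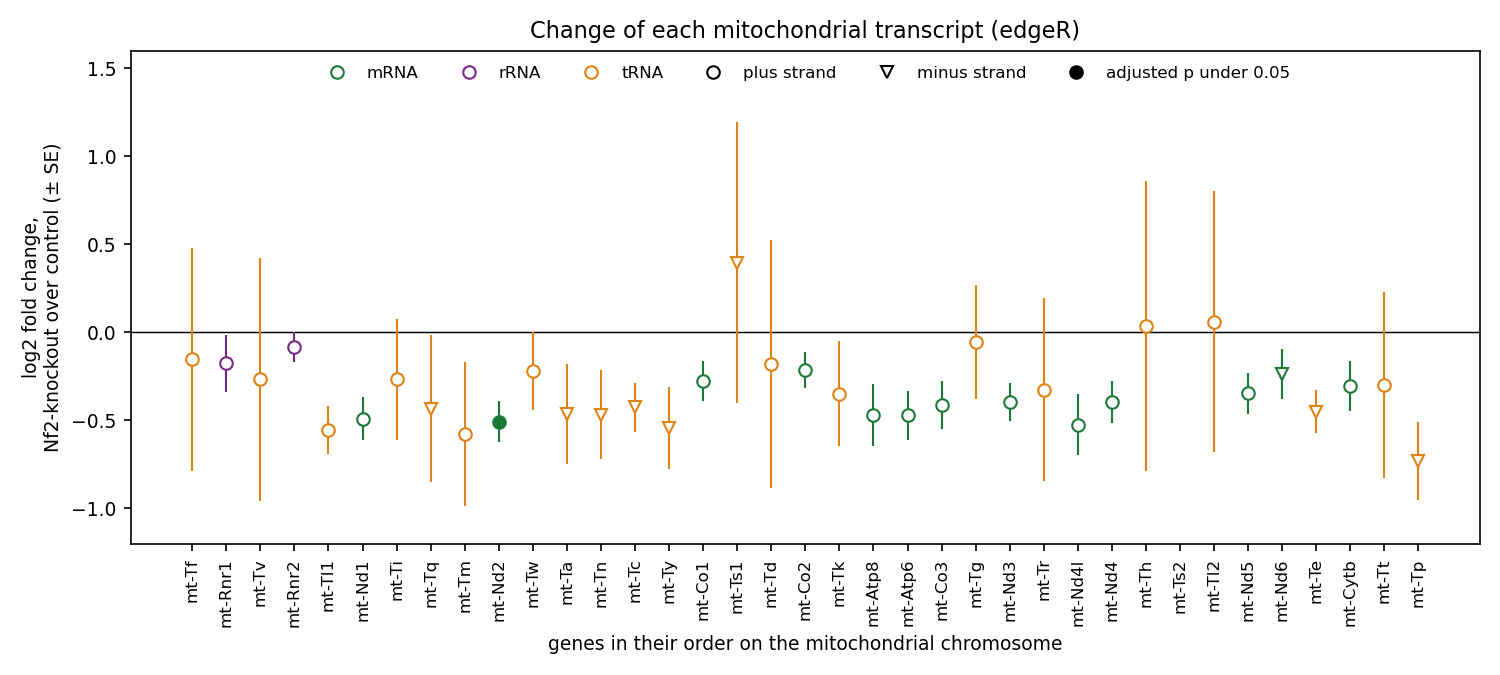
Points give edgeR's log2 fold change of Nf2-knockout over control with its SE for 36 mitochondrial transcripts, in their order on the chromosome, coloured by class, with circles for the plus and triangles for the minus strand. Most points lie below 0, the filled point mt-Nd2 passed the test, and the tRNAs with few counts have the widest bars.

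The member that passed was mt-Nd2 (ENSMUSG00000064345, chromosome MT, 3914 to 4951, plus strand), which encodes a membrane subunit of complex I, the NADH dehydrogenase. Its level was 4840, 4461 and 4485 CPM in knockout replicates 1 to 3, compared with 7433, 6102 and 6055 CPM in those of the control. The groups lay well apart. The mean fell from 6530 ± 782 CPM to 4595 ± 212 CPM, a log2 fold change of −0.51 (SE 0.115, edgeR adjusted p = 0.0387). The call was lost on leaving out any of the 6 libraries. The log2 fold change then lay between −0.56 and −0.40, with adjusted p of 0.0536 to 0.119. It was also lost with library totals alone, without a filter on low counts, with the replicate block and in both limma fits to FPKM. DESeq2 called mt-Nd2 and 6 further members lower, mt-Tl1, mt-Nd1, mt-Atp6, mt-Nd3, mt-Te and mt-Tp, against 6.63% of all genes with an adjusted p.

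The other complex I mRNAs did not pass. The gene mt-Nd1 (2751 to 3707) lay at 8933, 9074 and 8984 CPM in the knockouts, compared with 14594, 11980 and 11344 CPM in the controls, so that the groups did not overlap (log2 fold change −0.49, SE 0.123, edgeR adjusted p = 0.0517). Its 3 Nf2-knockout values differed by far less than the controls, at an SD of 71.3 against 1722 CPM. For mt-Nd4l (9877 to 10173) the values were 761, 863 and 799 against 1412, 1209 and 865 CPM. Control replicate 3 lay barely above the highest Nf2-knockout library there, and the log2 fold change was −0.52 (SE 0.175, edgeR adjusted p = 0.116). The gene mt-Nd4 (10167 to 11544) stood at 5101 ± 135 against 6707 ± 925 CPM and mt-Nd5 (11742 to 13565) at 5469 ± 259 against 6956 ± 883 CPM. The small subunit gene mt-Nd3 (9459 to 9806) stood at 653, 706 and 662 against 936, 956 and 767 CPM (log2 fold change −0.40, SE 0.107, edgeR adjusted p = 0.067), without overlap, and was the only mRNA with its highest level in control replicate 2. The other 12 mRNAs were highest in control replicate 1.

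For the mRNA of the minus strand the groups were not separated. The gene mt-Nd6 (13552 to 14070), the complex I subunit encoded apart from the rest, had 2174, 1706 and 1922 CPM in the knockouts, compared with 2572, 1928 and 2326 CPM in the controls. The log2 fold change was −0.23 (SE 0.141, edgeR adjusted p = 0.362). Set against the plus-strand mRNAs of the same library, mt-Nd6 made up 3.11, 2.49 and 2.80 counts per 100 in the knockouts, compared with 2.56, 2.33 and 2.84 per 100 in the controls. This ratio, which needs no scaling, did not separate the groups (exact permutation p = 0.5). In poly(A) libraries it also depends on how well each mRNA was captured, which was not tested.

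Cytochrome c oxidase (complex IV) has its 3 catalytic core subunits encoded here. The level of mt-Co1 (5328 to 6872) was 23645, 21935 and 22499 CPM in the knockouts, compared with 30294, 25741 and 26453 CPM in the controls (log2 fold change −0.28, SE 0.114, edgeR adjusted p = 0.189). That of mt-Co2 (7013 to 7696) was 5241, 5917 and 5262 against 6858, 6167 and 6012 CPM. In both genes the groups lay apart by a margin smaller than the spread of the controls. For mt-Co3 (8607 to 9390) the levels were 4582, 5462 and 4786 against 7551, 6503 and 5680 CPM (log2 fold change −0.41, SE 0.135, edgeR adjusted p = 0.112). In the fit to all 6 libraries the smallest difference of the 13 mRNAs was that of mt-Co2, at −0.21 (SE 0.105, edgeR adjusted p = 0.265). With the counts of its nuclear copy added, mt-Co2 stood at −0.30 (SE 0.108, edgeR adjusted p = 0.138).

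Of complexes III and V, mt-Cytb (14145 to 15288), the cytochrome b of complex III, had 8324, 7316 and 8003 CPM in the knockouts, compared with 11549, 8282 and 9350 CPM in the controls. Control replicate 2 fell among the Nf2-knockout libraries (log2 fold change −0.30, SE 0.143, edgeR adjusted p = 0.247). The ATP synthase subunit gene mt-Atp8 (7766 to 7969) stood at 1478, 1580 and 1467 against 2582, 2130 and 1549 CPM, and mt-Atp6 (7927 to 8607) at 827, 857 and 788 against 1365, 1122 and 939 CPM. Control replicate 3 was the lowest control for both, inside the Nf2-knockout range for mt-Atp8 and above it for mt-Atp6. Their log2 fold changes were −0.47 for each (SE 0.178 and 0.140, edgeR adjusted p = 0.158 and 0.0874). Without control replicate 3 edgeR called 4 members lower, mt-Atp8, mt-Atp6, mt-Nd3 and mt-Nd4l, in a fit where 3.14% of all genes tested fell. With Nf2-knockout replicate 1 removed it called mt-Tl1 alone, where 1.70% of all genes fell. The other 4 such fits called 0 members, where 3.75% (Nf2-knockout replicate 2 removed), 2.16% (Nf2-knockout replicate 3), 2.79% (control replicate 1) and 2.02% (control replicate 2) of all genes fell.

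**Figure D3:**
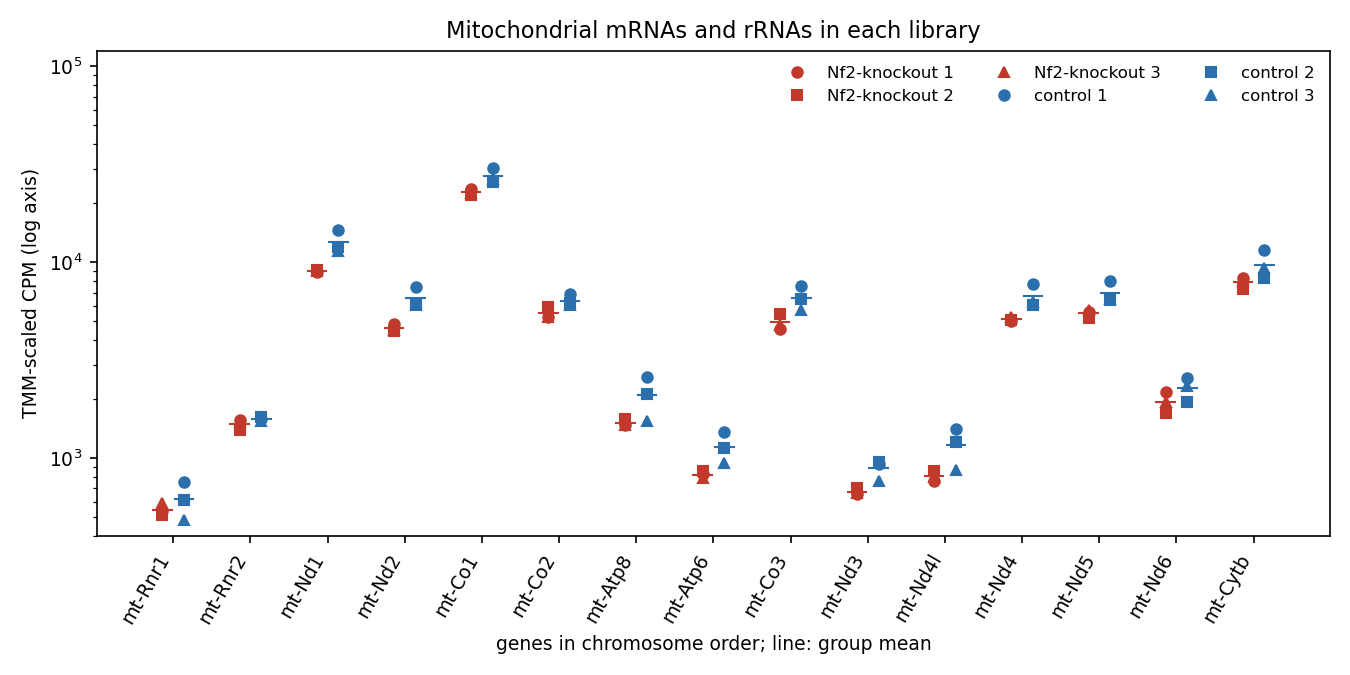
Points give the TMM-scaled CPM (log axis) of the 13 mitochondrial mRNAs and 2 rRNAs in each of 3 Nf2-knockout (red) and 3 control (blue) libraries, with lines at the group means. For 10 of the 13 mRNAs the red and blue points do not overlap, and control replicate 1 is the highest point for 12 of the 13. Of all genes tested 32.9% did not overlap in either direction and 17.4% lower. The 12 plus-strand mRNAs are cut from shared precursors, and all 13 were measured in the same libraries, so they are not independent.

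Neither rRNA of the mitochondrial ribosome passed the test, and for both the groups overlapped. The 16S rRNA gene mt-Rnr2 (1094 to 2675) had 1567, 1394 and 1515 CPM in the knockouts, compared with 1574, 1620 and 1540 CPM in the controls (log2 fold change −0.08, SE 0.0859, edgeR adjusted p = 0.628). Its sign turned to 0.02 with library totals alone and in both limma fits to FPKM. The 12S rRNA gene mt-Rnr1 (70 to 1024) had 536, 511 and 591 against 755, 614 and 482 CPM (log2 fold change −0.18, SE 0.163, edgeR adjusted p = 0.568). Control replicates 1 and 3 were its highest and lowest libraries. The 2 genes are copied together, yet the 12S rRNA stood at 34.2 to 39.0 counts per 100 of the 16S rRNA in Nf2-knockout and at 48.0, 37.9 and 31.3 in control replicates 1 to 3. Counts of rRNA per 100 counts of mRNA were 2.92, 2.72 and 2.98 in the knockouts, compared with 2.26, 2.64 and 2.40 in the controls. This was the only one of 6 such ratios whose groups did not overlap (2.87 ± 0.139 against 2.44 ± 0.190, exact permutation p = 0.1, adjusted over the 6 ratios p = 0.6). In poly(A) libraries rRNA counts depend on capture, and whether capture differed between libraries was not tested.

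Most counts on tRNA genes came from few of them. The 8 tRNAs with a mean of at least 500 counts per library, a limit set after the values were seen, held 96.0% of all tRNA counts. Among them were 6 of the 8 minus-strand tRNAs (mt-Ta, mt-Tn, mt-Tc, mt-Ty, mt-Te and mt-Tp) and 2 of the 14 plus-strand tRNAs (mt-Tl1 and mt-Tw). The other 14 had means of 1 to 273 counts. Sequences are given for the 3 tRNAs with the highest mean counts, and for mt-Ts2, which was almost without reads.
mt-Te: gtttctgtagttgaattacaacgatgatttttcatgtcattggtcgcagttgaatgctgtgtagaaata
mt-Tl1: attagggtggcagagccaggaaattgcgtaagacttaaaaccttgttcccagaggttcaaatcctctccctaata
mt-Tp: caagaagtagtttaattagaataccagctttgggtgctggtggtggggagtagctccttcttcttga
mt-Ts2: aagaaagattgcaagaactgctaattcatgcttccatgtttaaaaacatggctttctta
At 59 to 75 bases these genes are short, and reads over them may come from mature tRNA or from uncut precursors, which these counts do not separate. Unless counting used strand, reads may also come from the opposite strand.

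The glutamate tRNA mt-Te (14071 to 14139, minus strand, between mt-Nd6 and mt-Cytb) held 26.4% of the tRNA counts. It had 99.6, 73.7 and 88.3 CPM in the knockouts, compared with 123, 113 and 121 CPM in the controls, without overlap (log2 fold change −0.45, SE 0.121, edgeR adjusted p = 0.0643). The leucine tRNA mt-Tl1 (2676 to 2750), which lies between the 16S rRNA and mt-Nd1, had 64.7, 46.5 and 51.2 against 83.9, 81.9 and 72.7 CPM (log2 fold change −0.55, SE 0.138, edgeR adjusted p = 0.0517). The proline tRNA mt-Tp (15356 to 15422, minus strand) had 56.2, 44.2 and 38.7 against 59.5, 101 and 70.0 CPM, with the most negative log2 fold change of the 36 members in the fit to all libraries (log2 fold change −0.73, SE 0.222, edgeR adjusted p = 0.0926). Its highest library was control replicate 2, and control replicate 1, the highest for most mRNAs, lay just above the Nf2-knockout range.

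The 4 adjoining minus-strand tRNAs between mt-Tw and mt-Co1 did not pass either. The alanine tRNA mt-Ta (5018 to 5086) had 48.9, 29.4 and 33.4 CPM in the knockouts, compared with 49.0, 70.2 and 34.9 CPM in the controls, and the asparagine tRNA mt-Tn (5089 to 5159) 63.6, 42.7 and 46.4 against 71.3, 91.6 and 48.1 CPM. Both were highest in control replicate 2, as were mt-Ty and mt-Tp, and control replicate 3 lay within the Nf2-knockout range for mt-Ta, mt-Tn and mt-Ty. The cysteine tRNA mt-Tc (5192 to 5257) had 13.6, 15.3 and 14.1 against 22.5, 17.9 and 17.3 CPM without overlap (log2 fold change −0.42, SE 0.139, edgeR adjusted p = 0.112). The tyrosine tRNA mt-Ty (5260 to 5326) stood at 8.41 ± 2.30 against 12.3 ± 2.30 CPM. The tryptophan tRNA mt-Tw (4950 to 5016) on the other strand stood at 12.7 ± 2.55 against 14.8 ± 3.57 CPM. All tRNAs together made up 0.545, 0.405 and 0.427 counts per 100 mRNA counts in the knockouts, compared with 0.433, 0.618 and 0.492 in the controls, with overlap (exact permutation p = 0.5).

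The remaining 14 tRNAs had few counts and wide errors. The 13 that were tested had log2 fold changes from −0.58 (mt-Tm, methionine) to 0.40 (mt-Ts1, serine), with SEs of 0.299 to 0.823 and adjusted p of at least 0.446 in edgeR. The gene mt-Ts1 (6870 to 6938) had 78, 32 and 35 counts in the knockouts, compared with 8, 61 and 37 in the controls, so that the lowest and the highest value were found in different groups. The gene mt-Th (11546 to 11612) had 16, 21 and 6 against 6, 11 and 23 counts. The neighbouring mt-Ts2 (11613 to 11671) had exactly 1 count in each of the 6 libraries. For 8 of these 13 tRNAs the sign of the log2 fold change turned under some alternative setting. The threonine tRNA mt-Tt (15289 to 15355) had more counts than the others, 363, 242 and 140 in the knockouts, compared with 152, 281 and 459 in the controls. Its SE of 0.530 was still wider than the 0.299 of the lysine tRNA mt-Tk, which had 101 to 177 counts in the 6 libraries.

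The nuclear copies on chromosome 1 took a large part of the counts of the genes they repeat. Of the counts on mt-Co2, mt-Co3, mt-Nd3 and mt-Nd4l and their copies, 47.0% to 49.9% lay on the copy in 5 of the libraries. Nf2-knockout replicate 2 stood apart with 38.9% to 41.1%, and it had the lowest share of all 6 libraries in each of the 7 pairs. For mt-Atp6 the copy Gm10925 (24613974 to 24614651) held most of the counts, at 82.0%, 78.9% and 83.4% in the knockouts, compared with 83.6%, 81.0% and 82.6% in the controls. For mt-Nd4, of which the copy covers part, the share on the copy was 27.4 ± 2.67% against 29.3 ± 1.61%. For mt-Co1 it was 11.5%, 9.59% and 10.9% in the knockouts, compared with 13.3%, 13.1% and 11.8% in the controls, the only pair without overlap (exact permutation p = 0.1, adjusted over the 7 pairs p = 0.6). How much of this RNA was transcribed from chromosome 1 was not tested.

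**Figure D4:**
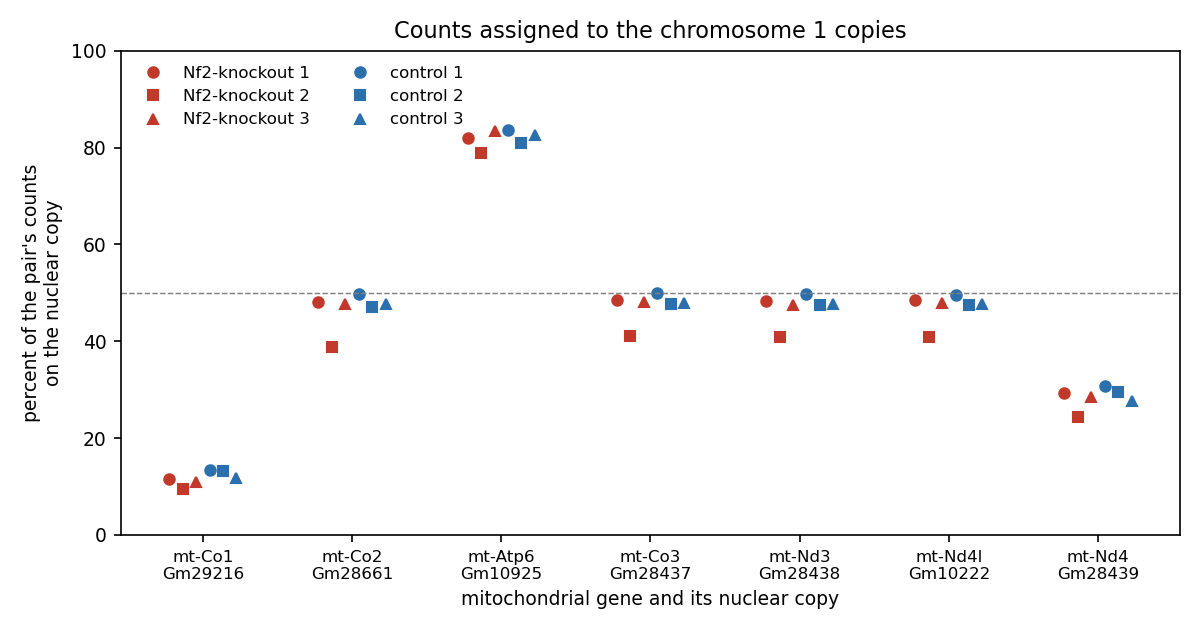
Points give, for 7 mitochondrial genes and their nuclear copies, the percent of the pair's counts that lay on the copy in each of 6 libraries, with a dashed line at 50%. The pairs of mt-Co2, mt-Co3, mt-Nd3 and mt-Nd4l lie just under the line, that of mt-Atp6 near 82%, and Nf2-knockout replicate 2 is lowest in every pair.

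Of the copies themselves, Gm28438, the copy of mt-Nd3, passed the test at 565 against 831 CPM (log2 fold change −0.56, SE 0.137, edgeR adjusted p = 0.0492). This call was kept in 1 of the 6 fits without a library, with adjusted p of 0.0372 to 0.142. The other 6 had log2 fold changes of −0.67 to −0.40 with adjusted p of 0.0584 to 0.140. With each copy's counts added to its mitochondrial gene, an alternative chosen after the values were seen, edgeR called 2 members lower, mt-Nd2 and mt-Nd3, against 5.18% of all genes tested. For mt-Nd3 the log2 fold change was then −0.47 (adjusted p = 0.0442), for mt-Co3 −0.49 (adjusted p = 0.072) and for mt-Atp6 −0.55 (adjusted p = 0.102). It was −0.59 for mt-Nd4l (adjusted p = 0.0924) and −0.43 for mt-Nd4 (adjusted p = 0.0916). For mt-Co1 and mt-Co2 it was −0.31 (adjusted p = 0.152) and −0.30 (adjusted p = 0.138). The genes Gm13340 and Gm13341 on chromosome 2 share 27.5% and 36.0% of their stretches of 50 bases with mt-Co1 and mt-Co2, and held at most 0.0153% and 0.00974% of a library.

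The copies also change the order of levels per length. In deposited FPKM, which is scaled to transcript length and library size, control means ran from 15465 ± 1442 for mt-Co1 over 11479 ± 1624 for mt-Nd1, 8896 ± 2256 for mt-Atp8 and 8062 ± 614 for mt-Co2 down to 2214 ± 270 for mt-Nd3 and 1458 ± 281 for mt-Atp6, the lowest mRNA. The neighbours mt-Cytb (7389 ± 1292) and mt-Co3 (7293 ± 1081) differed by less than their spread. With the FPKM of the copies added, mt-Co1 stood at 22580 ± 2439, mt-Co2 at 15606 ± 1594 and mt-Co3 at 14197 ± 2428. Each FPKM is scaled to the length of its own row. The copies of mt-Co1 and mt-Nd4 cover 31.8% and 63.6% of the gene, so sums for these genes are not levels over the whole gene. With the copies added, mt-Atp6 moved from rank 13 to rank 6 among the 15 mRNAs and rRNAs, at 8391 ± 2064. It then stood next to mt-Atp8, with which it shares an mRNA. No copy is annotated for mt-Atp8 and none was added, so these values are not of the same kind. The levels of mt-Nd5 (3314 ± 436) and mt-Nd6 (3809 ± 550) were then the lowest of the mRNAs. Both rRNAs lay below every mRNA, at 867 ± 25.4 for mt-Rnr2 and 562 ± 127 for mt-Rnr1. In Nf2-knockout libraries mt-Co1 (13690.4 ± 508) and mt-Nd1 (8763 ± 99.4) again headed the list and mt-Atp6 (1127 ± 38.4) was again the lowest mRNA before the copies were added.

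Few of the nuclear genes that transcribe, process and translate mitochondrial RNA passed the test. Of 93 tested genes in 7 lists, 2 rose and 1 fell, with a median of −0.04 against −0.01 over all genes, where 4.11% of all genes rose and 5.18% fell. At an unadjusted edgeR p under 0.05, 11 of the 93 were lower and 3 higher. Of all genes tested 24.8% reached that level in either direction and 13.2% lower. The mitochondrial RNA polymerase Polrmt stood at 19.1 ± 2.21 against 18.3 ± 4.33 CPM (log2 fold change 0.07, edgeR adjusted p = 0.867) and its DNA-packaging partner Tfam at 30.8 ± 3.57 against 30.7 ± 1.33 CPM (0.00, adjusted p = 0.992). Their signs depended on single libraries, and that of Tfam also on the block. Of 9 transcription and termination genes 0 passed, with 2 at an unadjusted p under 0.05 in edgeR. Among them Mterf4, which acts on the mitochondrial ribosome, stood at 16.4 ± 2.73 against 23.9 ± 5.65 CPM (−0.55, adjusted p = 0.147). Of 13 genes of RNA processing 0 passed (median −0.21, 3 at an unadjusted p under 0.05), and Fastk, needed for mt-Nd6 mRNA, stood at 45.6 ± 5.74 against 58.9 ± 2.87 CPM (−0.37, adjusted p = 0.0953).

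Among 8 genes of polyadenylation and decay, 2 rose and 0 fell. Slirp, which with Lrpprc binds and stabilises mitochondrial mRNAs, rose from 28.0 ± 4.56 CPM to 44.2 ± 6.75 CPM, a log2 fold change of 0.66 (SE 0.160, edgeR adjusted p = 0.0477). This call was kept in 1 of the 6 fits without a library. Rexo2, an exonuclease that clears short RNA fragments, rose from 137 ± 10.5 to 194 ± 8.84 CPM (0.50, SE 0.0892, adjusted p = 0.0183, 5 of 6 fits). Lrpprc itself stood at 59.5 ± 4.76 against 63.9 ± 4.10 CPM (−0.10, adjusted p = 0.584). The mitochondrial poly(A) polymerase Mtpap lay lower in every Nf2-knockout library without passing, at 21.8 ± 0.389 against 26.8 ± 0.882 CPM (−0.30, adjusted p = 0.0994), as did the RNA-degrading phosphorylase Pnpt1 (28.1 ± 1.89 against 35.4 ± 1.46 CPM, −0.33, adjusted p = 0.0862).

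Of 13 genes of mitochondrial DNA replication and nucleotide supply 0 passed in edgeR, also with 0 at an unadjusted p under 0.05. Of all genes tested 24.8% had such a p. The DNA polymerase gene Polg stood at 39.5 ± 1.67 against 33.1 ± 3.52 CPM (0.26, adjusted p = 0.206) and the helicase Twnk at 13.4 ± 1.95 against 14.7 ± 0.511 CPM (−0.14, adjusted p = 0.623). DNA copy number was not measured. Of 20 genes of rRNA and tRNA modification 0 passed (1 at an unadjusted p under 0.05 in edgeR, the methyltransferase Nsun3 at −0.45), and of 20 genes of aminoacyl-tRNA synthesis likewise 0 (1 at that level, Yars2 at 0.41). Of 10 translation factors 1 fell, the elongation factor Gfm1, from 78.0 ± 3.50 to 58.4 ± 2.17 CPM (−0.42, SE 0.0825, edgeR adjusted p = 0.0251, 1 of 6 fits).

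Nuclear genes for subunits of the same complexes were lower, with more calls. Of 71 nuclear-encoded subunits of complexes I, III, IV and V, 28 fell and 0 rose (39.4% against the 5.18% of all genes that fell), while 1 of 13 mitochondrial mRNAs did. The medians were close, at −0.41 for the nuclear and −0.40 for the mitochondrial genes, and so were the median SEs, at 0.117 and 0.123. Whether the shares of calls differ was not tested. By complex, 8 of 36 nuclear genes fell for complex I, 9 of 9 for complex III, 5 of 11 for complex IV and 6 of 15 for complex V. In complex III, where mt-Cytb did not pass, Uqcrh fell from 345 ± 55.3 to 185 ± 15.1 CPM (−0.90, SE 0.132, edgeR adjusted p = 0.0103) and Uqcrb from 273 ± 15.0 to 167 ± 14.1 CPM (−0.71, SE 0.0940, adjusted p = 0.0082). Cox7c of complex IV fell from 320 ± 12.1 to 199 ± 13.2 CPM (−0.69), Atp5g3 of complex V from 589 ± 50.1 to 344 ± 17.9 CPM (−0.78) and Ndufv2 of complex I from 184 ± 6.69 to 113 ± 2.13 CPM (−0.70). Leaving out Nf2-knockout replicate 1 or 3 lowered the number that fell to 8, where 1.7% and 2.16% of all genes fell. It was 11 without control replicate 2 (2.02% of all genes) and 20 without control replicate 1 (2.79%). The number was 17 without Nf2-knockout replicate 2 (3.75%) and also without control replicate 3 (3.14%).

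**Figure D5:**
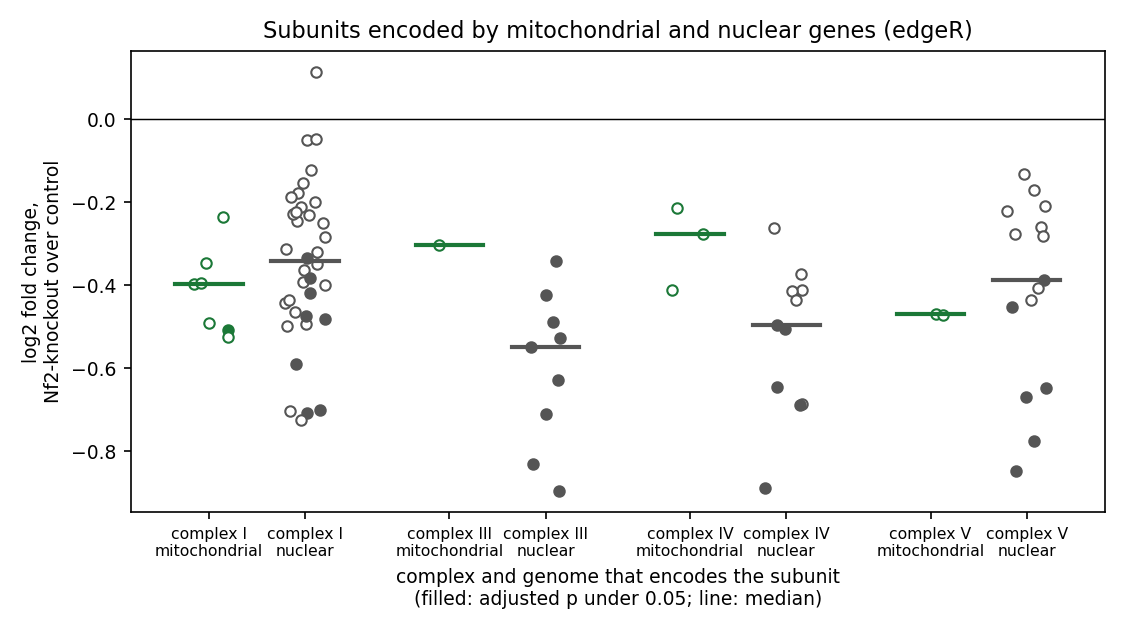
Points give edgeR's log2 fold change of Nf2-knockout over control for the subunits of complexes I, III, IV and V that are encoded by mitochondrial (green) and nuclear (grey) genes, filled where the adjusted p was under 0.05, with lines at the medians. Of the 84 points 1 lies above 0, the medians of both kinds lie between −0.55 and −0.28, and 28 nuclear points and 1 mitochondrial point are filled.

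The summed level of mitochondrial mRNAs of complex I was 27579 ± 453 CPM in the knockouts, compared with 37156 ± 4801 CPM in the controls, and of complex IV 33110 ± 494 against 40420 ± 3712 CPM. These sums leave out counts on the nuclear copies of mt-Nd3, mt-Nd4l and mt-Nd4 and of all mitochondrial mRNAs of complex IV. The part on the copies differed between libraries. The nuclear subunits of complex I summed to 3382 ± 162 against 4304 ± 284 CPM, and those of complex IV to 2666 ± 75.4 against 3871 ± 467 CPM. Libraries ranked differently in the 2 sets. Control replicate 1 had the highest sum of mitochondrial complex I mRNAs (42689 CPM) and the lowest control sum of nuclear complex I subunits (3981 CPM), whereas control replicate 3 had the lowest control sum of the first (34094 CPM) and the highest of the second (4516 CPM).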

How the data were processed

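Poly(A) RNA-seq of 6 libraries was used, with groups and replicate numbers taken from the sample titles. Per the submitters' processing notes the tools included HISAT2 2.0.4 and StringTie 1.3.4d, next to cutadapt 1.9 and edgeR. The sources used here do not name a build. The authors deposited 1 table with a whole-number count per gene and library, which may be rounded coverage estimates, and an FPKM value, normalised by the authors for length and depth. Positions matched GENCODE M21 (GRCm38) for 94.2% of the 55141 genes with an entry and for 37 of 37 members.

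The main test was edgeR's two-sided quasi-likelihood test (version 4.0.16, R 4.3.3; glmQLFit, glmQLFTest) with the group as the only term, after filterByExpr and TMM scaling. P-values were adjusted by Benjamini-Hochberg over 18218 genes, with a threshold of 0.05. The script was tested on simulated data. An SE is the size of the log2 fold change divided by the root of the F statistic. CPM values use TMM-scaled library sizes, and shares use plain totals. Single values were compared by exact two-sided permutation tests. Alternatives were DESeq2 1.42.0, its size factors, totals alone, scaling without mitochondrial rows, no filter, limma 3.58.1 on log2(FPKM + 1) or + 0.1 at a mean FPKM of at least 1, a replicate block, leaving out each library, and, added after the data were seen, the sum of each nuclear copy with its gene. Shared sequence was searched as 50-base stretches in GENCODE M21 transcripts.

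Named were all members in the fit, up to 4 genes of each list by smallest p, 7 nuclear genes whatever their values, and the copies within 10000 bases of Gm10925. The nuclear genes shown are examples of these. The members and lists were chosen with earlier results of these data known.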

Additional observations from a re-analysis of the deposited data

How the results depend on the processing

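The number of members that fell (1) was 0 with library totals alone, without a filter, in either limma fit and with the replicate block, 7 with DESeq2 (mt-Tl1, mt-Nd1, mt-Nd2, mt-Atp6, mt-Nd3, mt-Te and mt-Tp, against 6.63% of all genes), 2 with copies added, and 0 to 4 without 1 library. The number that rose was 0 under all 15 alternatives. At an unadjusted p under 0.05 in either direction, edgeR had 9 members with totals alone, 15 without a filter and 16 with the replicate block, and limma 7 in each fit. The share of all genes at that level was taken for the main fit only (24.8%). These counts can therefore not be set against all genes of their own fits. Nuclear genes of mitochondrial gene expression that rose (2) were 1 without a filter or with the replicate block, 4 in either limma fit and 0 to 2 without 1 library. Those that fell (1) were 0 with totals alone, in either limma fit and with the replicate block, and 0 to 1 without 1 library. Nuclear-encoded subunits that fell (28) were 15 with totals alone and in either limma fit, 16 with the replicate block and 8 to 20 without 1 library. Over all genes, 749 rose and 944 fell. With totals alone 1130 rose and 707 fell, and the limma fits with pseudocounts of 1 and 0.1 gave 1039 and 1024 against 596 and 589. DESeq2 had 1252 rises, the replicate block gave 389 rises and 534 falls, and fits without 1 library 309 to 574 rises and 320 to 706 falls. The median log2 fold change of all genes was −0.01, and reached 0.09 with totals alone and 0.10 with limma at a pseudocount of 0.1.

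In sums of deposited FPKM the difference in share was −3.06 percentage points for all members, −2.76 for mRNA and −0.303 for tRNA, and 0.00928 for rRNA, whose sign turned. Without 1 library these differences in counts ran from −1.79 to −0.808, from −1.77 to −0.802, from −0.0142 to −0.00775 and, for rRNA, from −0.0107 to 0.00605, with further turns of sign to 0.00557 and 0.00104. The log2 difference of the 12S to 16S ratio ran from −0.22 to 0.0864, and that of minus- to plus-strand tRNA from −0.13 to 0.0671.

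Of 540 values of 36 members under 15 alternatives, 487 kept direction and side of the threshold, and 30, of 9 members, turned their sign. For mt-Tf limma gave 0.0576 and 0.11, for mt-Tv 0.0551 and 0.12, for mt-Td 0.0617 and 0.13, for mt-Rnr2 0.0196 in both fits and for mt-Tg 0.0227 and 0.0229. Totals alone gave 0.0172 for mt-Rnr2 and 0.042 for mt-Tg, and the replicate block gave −0.0027 for Tfam. Without 1 library, mt-Tf ran from −0.48 to 0.31, mt-Tv from −0.66 to 0.52, mt-Ts1 from −0.28 to 1.10, mt-Td from −0.61 to 0.21, mt-Tg from −0.31 to 0.11, mt-Th from −0.32 to 0.66, mt-Tl2 from −0.27 to 0.51, mt-Tt from −0.81 to 0.14, Polrmt from −0.0813 to 0.26 and Tfam from −0.0754 to 0.0684. The cause of these turns was not tested. All 13 mRNAs were negative under each alternative. Deviations of libraries with the same replicate number correlated at −0.0895, 0.0296 and 0.0234 across genes, so no pairing by number was visible. With 3 libraries per group these values cannot exclude a pairing, and the labels do not state one.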
